A study of Mus musculus with 74 samples.

Results

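The comparison asks how epithelium labelled hindstomach differed in its RNA from epithelium of the small intestine in mouse embryos on embryonic day 12 (E12). It holds 4 of the 74 samples of the series, taken by their labels: 2 RNA-seq libraries of WT E12 hindstomach and 2 of WT E12 small intestine. All 4 came from wild-type CD1 embryos with no treatment, and no library of the comparison carries a deletion, a Cre or a transgene. Tissue was digested with trypsin, cells with the epithelial surface protein Epcam were collected by flow cytometry, and a low-input kit (SMARTer-Seq v4) turned their RNA into libraries. For small intestine, the cell type label reads midgut, the embryonic segment that forms most of the small intestine. The labels do not say whether embryos were pooled or whether the replicates came from separate litters. The p-values therefore measure only the spread between replicate libraries, which may be technical. Unless said otherwise, that spread was estimated over 27 embryonic libraries together. Its common dispersion was 0.0708, against 0.326 in the 4 libraries alone. For reference, wild-type E12 forestomach and wild-type hindstomach and small intestine at E14 and E16 are read beside them, again untreated CD1 embryos with 2 libraries a group. The fit that estimates the spread also holds wild-type forestomach at E14 and E16, wild-type small intestine at E18, and 7 libraries of small intestine without Cdx2 on a B6;129 mixed background. Of those 7, 3 were Cdx2f/f with Shh-Cre, deleted at E10 and taken at E16, and 4 were Cdx2f/f with Villin-Cre after tamoxifen, deleted at E13 and taken at E16 or deleted at E15 and taken at E18.

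The hindstomach is the glandular part of the mouse stomach. In the gut tube, regional identity is set along the head-to-tail axis by transcription factors: Sox2 in the oesophagus and stomach, Cdx2 in the intestine, and Gata4 from the stomach to the greater part of the small intestine. Hox genes lie in clusters, and their paralogue number follows the axis, so that genes of low number are used from anterior levels onward and genes of high number only toward the tail. The pancreas, liver and bile ducts bud from the endoderm next to the stomach and the first part of the intestine.

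Levels are given in CPM, the count scaled to a common library total by TMM, a scaling that compares the bulk of genes. They compare libraries for a gene, not genes with each other. Total counts in the 4 libraries were 25253067 and 26745220 for labelled hindstomach replicates 1 and 2, and 25311636 and 26147081 for small intestine replicates 1 and 2. Calls required a change of at least 1 on the log2 scale, labelled hindstomach over small intestine, together with an adjusted p under 0.05.

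Epcam did not distinguish the groups: its level was 726 and 888 CPM in labelled hindstomach and 857 and 833 CPM in small intestine. Of 12 listed genes of gut epithelium, 1 was called higher (2 without small intestine replicate 2) and 0 lower, and Epcam, Krt8 and Cldn7 were not called. Over all tested genes, 5.60% were called higher and 3.67% lower, and the list counts below are to be set beside these shares. Cdx2 was at 116 and 160.2 CPM in labelled hindstomach and at 153 and 115 CPM in small intestine, so the groups overlapped. Its log2 fold change was 0.05 ± 0.28 (SE), with an adjusted p of 0.984. In the E12 forestomach libraries Cdx2 was at 2.33 and 2.15 CPM, and in the E14 hindstomach libraries at 12.7 and 6.20 CPM.

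Several genes went against the stomach label. Gata4 was nearly absent from the libraries labelled E12 hindstomach, at 0.369 and 0.569 CPM, while small intestine held 195 and 145 CPM. It stood at 277 and 273 CPM in E12 forestomach and at 358 and 338 CPM in E14 hindstomach, so the libraries labelled E12 hindstomach were the low ones. Its log2 fold change was -8.48 ± 0.32 (SE), with an adjusted p of 2.64e-12 (0.00278 when the 4 libraries were fitted alone). Sox2 was at 20.6 and 9.07 CPM in labelled hindstomach and 6.63 and 3.41 CPM in small intestine. Both groups were far below the 185 and 160.2 CPM of E12 forestomach and the 92.3 and 68.2 CPM of E14 hindstomach. Nkx6-2, a homeodomain factor, was at 0.0308 and 0.0299 CPM in labelled hindstomach, against 20.6 and 18.4 CPM in small intestine, 149 and 158 CPM in E12 forestomach and 48.5 and 48.7 CPM in E14 hindstomach.

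Hox genes of high paralogue number moved the other way. Hoxb13, which is normally used at the tail end of the body, was at 150.3 and 159 CPM in labelled hindstomach and at 0.135 and 0.0319 CPM in small intestine. It was at 0.0705 and 0 CPM in E12 forestomach and at 0.0353 and 0 CPM in E14 hindstomach. Because Gata4 and Nkx6-2 were nearly absent and Hoxb13 was high, the 2 libraries are called here the libraries labelled hindstomach, and no other tissue name is given to them. What gave rise to this was not tested.

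**Figure D1:**
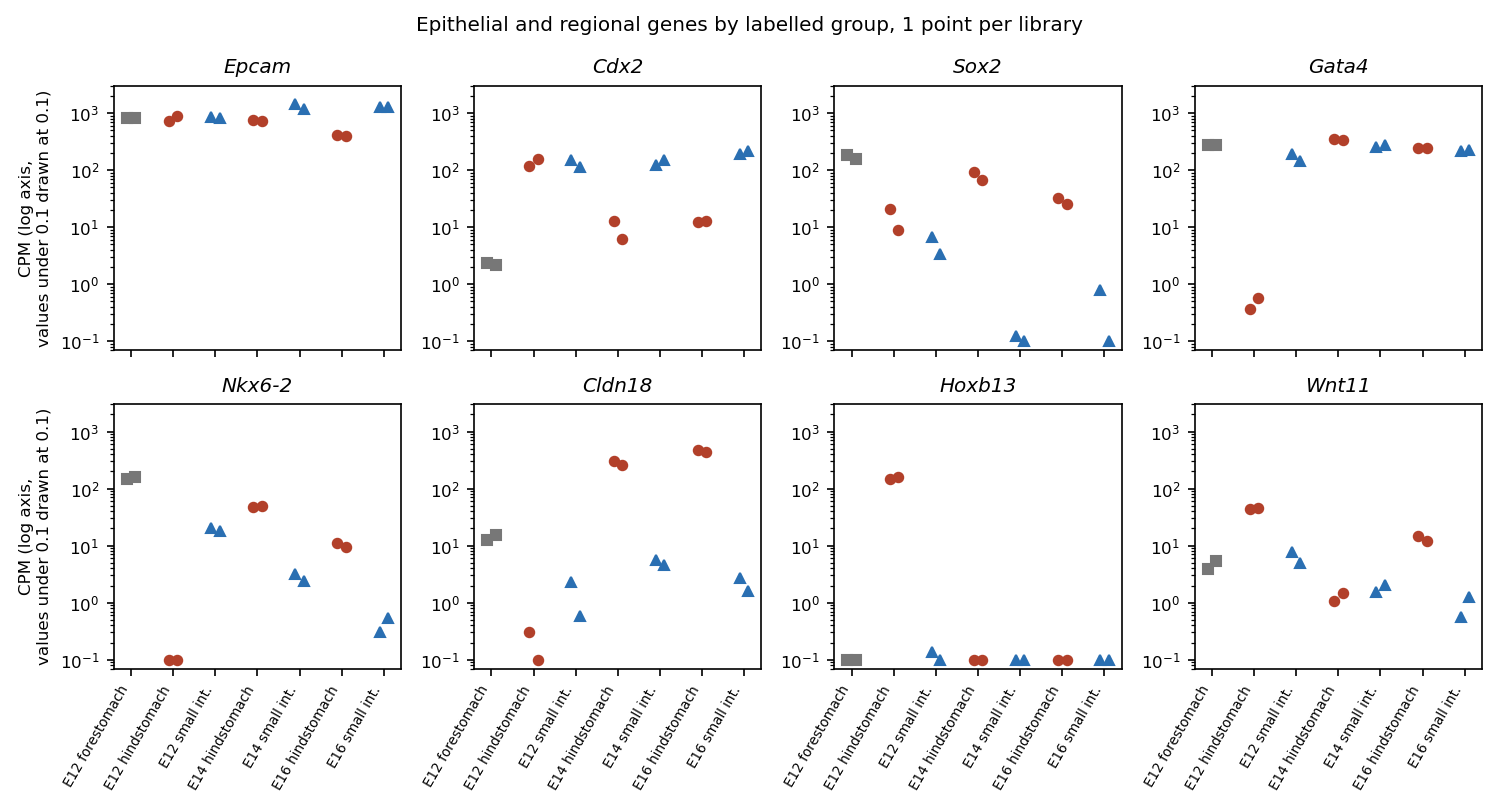
Level in CPM (log axis, values under 0.1 drawn at 0.1) of 8 genes in E12 forestomach and in hindstomach and small intestine at E12, E14 and E16, as labelled, with 1 point per library. Gata4 is above 100 CPM in every group drawn except the libraries labelled E12 hindstomach, at 0.369 and 0.569 CPM, and Hoxb13 is above 100 CPM in those libraries alone.

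Spearman correlations across all tested genes were compared as well. The libraries labelled E12 hindstomach correlated with E14 hindstomach at 0.915 to 0.919 and with E14 small intestine at 0.929 to 0.936. The E12 forestomach libraries correlated with E14 hindstomach at 0.953 to 0.956 and with E14 small intestine at 0.937 to 0.942, the latter above the libraries labelled hindstomach. With E14 small intestine, small intestine replicate 1 correlated at 0.914 to 0.922, below the libraries labelled hindstomach, and replicate 2 at 0.947 to 0.955, above them. These are descriptions across genes of libraries that share a protocol, and carry no test.

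One library of each group stood apart from its partner. The replicates of labelled hindstomach correlated at 0.981, and those of small intestine at 0.947. Small intestine replicate 1 had 4167 of the 17239 tested genes at a count of 0, against 1809 to 2169 in the other 3 libraries of the comparison. Among genes with a mean log2 CPM of at least 3, 10.3% differed by more than 2-fold between the small intestine replicates and 1.28% between the labelled hindstomach replicates. Labelled hindstomach replicate 1 held RNA of genes used in primordial germ cells, the embryonic precursors of sperm and eggs. The pluripotency factor Pou5f1 was at 42.8 CPM there and at 3.65 CPM in replicate 2, with 4.46 and 5.23 CPM in small intestine. Over 20 germ cell genes, a list chosen after values were seen, the summed level was 804 and 173 CPM in labelled hindstomach and 205 and 160.0 CPM in small intestine. Of each of these sums, 71.6 to 94.8 CPM came from Prdm1, which intestinal epithelium also uses. The genes Ddx4, Stk31 and Mov10l1 were called higher, and the Ddx4 call was lost without labelled hindstomach replicate 1 and the other 2 without any 1 of the 4 libraries. DESeq2 gave no adjusted p for Stk31 or Mov10l1.

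Markers of some other cell types differed between the groups. Summed over 15 genes of mesenchyme and smooth muscle, the level was 113 and 38.4 CPM in labelled hindstomach and 137 and 138 CPM in small intestine. Of those genes, 2 were called higher and 4 lower (7 without labelled hindstomach replicate 1 and 2 without replicate 2). Red cell genes summed to 202 and 16.4 CPM, against 95.5 and 113 CPM in small intestine, with Hba-a1, Hba-a2, Hbb-b1 and Hbb-b2 at 0 in all 4 libraries. Immune genes summed to 8.40 and 3.14 CPM, against 21.5 and 24.4 CPM, and endothelial genes to 19.6 and 1.35 CPM, against 22.3 and 13.5 CPM. Genes of the enteric nervous system summed to 71.1 and 68.9 CPM, against 18.9 and 33.1 CPM. Of its 8 genes, Ednrb was called higher and Sox10 and Tubb3 lower, and the median log2 fold change was -0.44, against the direction of the sum. Ednrb, an endothelin receptor, made most of the sum in labelled hindstomach, at 54.4 and 57.9 CPM against 0.913 and 5.48 CPM, and the Sox10 call rested on small intestine replicate 2, at 1.05 CPM and 0 in the other 3 libraries. The higher count was 4 without small intestine replicate 2, and the lower count 1 without labelled hindstomach replicate 2. Mesothelial genes summed to 12.2 and 12.9 CPM, against 0.0338 and 5.96 CPM. The mesenchyme and immune sums were lower, and the enteric nervous and mesothelial sums higher, in both libraries labelled hindstomach than in either small intestine library. Genes of the nephric duct and mesonephros, the embryonic kidney that lies beside the hind part of the gut, were a second list chosen after values were seen. Of its 10 tested members, 6 were called higher and 0 lower, where 5.60% and 3.67% of all tested genes were. Because of how the list was chosen, this count cannot serve as a test. With the 6 E12 libraries 2 of 10 were called higher, and with the 4 libraries alone 0 of 9. Calb1, a calcium-binding protein, was 1 of the 6, at 10.9 and 14.9 CPM against 0 and 0.0956 CPM. The 6 became 3 without labelled hindstomach replicate 1 and 3 with the replicate block, and the sums over the list overlapped, at 147 and 149 CPM against 166 and 121 CPM. The part of these cells in the differences was not tested.

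In all, 1599 of 17239 tested genes were called, which is 9.28%. Higher in labelled hindstomach were 966 (5.60%), and 633 (3.67%) had the opposite sign, and the median log2 fold change over all tested genes was 0. The groups did not overlap for 1493 of the called genes (8.66% of those tested), against 7738 (44.9%) of all tested genes. The fit held all 27 embryonic libraries, and with the 20 wild-type ones it called 1530 genes. When the 4 libraries were fitted alone, 122 of 14379 genes were called (0.848%), 56 of them higher (0.389%) and 66 lower (0.459%), and 2219 had an unadjusted p below 0.05. The estimated common dispersion was 0.326 in that fit and 0.0708 in the shared one. With small intestine replicate 2 left out, so that replicate 1 stood alone, the count rose to 3930, of which 2842 were higher. Without any of the other 3 libraries it was 1153 to 1413. Both fits called 118 genes in the same direction (0.684%), 53 higher and 65 lower.

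**Figure D2:**
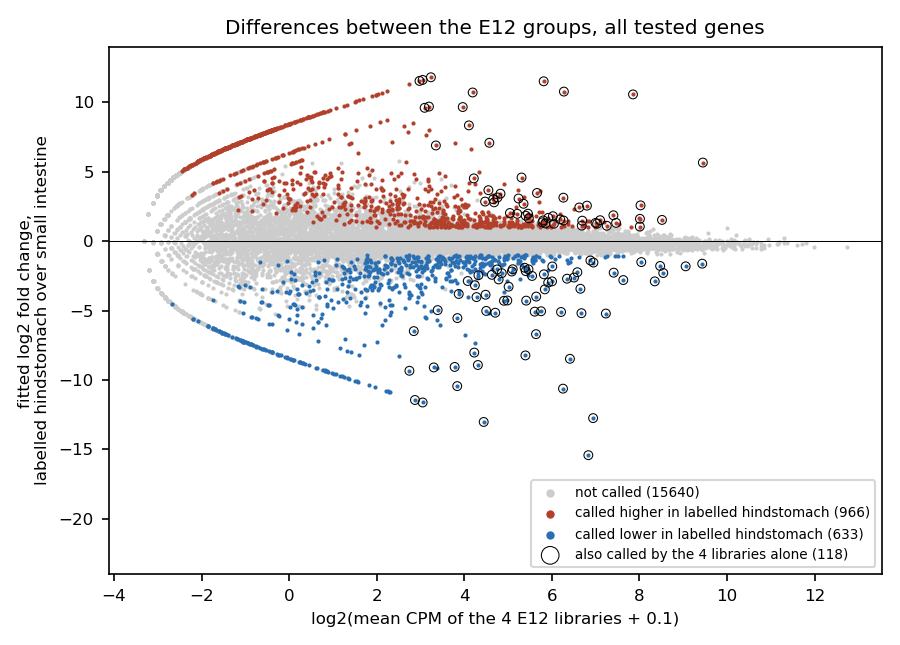
Fitted log2 fold change, labelled E12 hindstomach over E12 small intestine, of each of the 17239 tested genes (y axis) by log2 of its mean CPM over the 4 libraries plus 0.1 (x axis). Red and blue points are the 966 genes called higher and the 633 called lower, and circles mark the 118 that the 4 libraries alone also call. Points on the outer curves are genes at a count of 0 in a group, whose fitted value depends on the prior count.

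The promoters of 4 genes that stood at opposite ends of the comparison are shown, 250 bases up to the start site, 5′ to 3′ on the gene's strand, from the RefSeq table of build GRCm38.p6. Hoxd13 (chr2:74667975-74668224, plus strand) and Hoxa10 (chr6:52240855-52241104, minus strand) were high in labelled hindstomach. Sfrp5 (chr19:42202253-42202502, minus strand) and Nkx6-2 (chr7:139582798-139583047, minus strand) were near 0 there. Capitals mark, in all 4, TTTAT on either strand, a core shared by binding sites of CDX and posterior HOX proteins, and AGATAA on either strand, a GATA-type site. Neither motif contains the other, and overlapping matches run together in capitals, as both motifs do once in Sfrp5 and once in Nkx6-2. TTTAT matched 2 times in Hoxd13, 1 time in Hoxa10, 1 time in Sfrp5 and 2 times in Nkx6-2, so in both pairs, and AGATAA matched 0 times in Hoxd13 and Hoxa10, 2 times in Sfrp5 and 1 time in Nkx6-2.
Hoxd13: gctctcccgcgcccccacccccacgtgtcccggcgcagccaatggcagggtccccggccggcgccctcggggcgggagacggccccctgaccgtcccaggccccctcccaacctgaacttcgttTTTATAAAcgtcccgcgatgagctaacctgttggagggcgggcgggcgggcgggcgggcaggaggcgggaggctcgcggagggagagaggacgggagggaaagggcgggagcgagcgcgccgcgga
Hoxa10: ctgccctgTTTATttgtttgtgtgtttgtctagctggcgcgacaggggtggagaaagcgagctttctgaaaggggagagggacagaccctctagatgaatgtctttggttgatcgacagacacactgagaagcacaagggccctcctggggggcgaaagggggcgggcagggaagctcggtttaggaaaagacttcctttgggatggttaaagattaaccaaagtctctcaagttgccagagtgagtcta
Sfrp5: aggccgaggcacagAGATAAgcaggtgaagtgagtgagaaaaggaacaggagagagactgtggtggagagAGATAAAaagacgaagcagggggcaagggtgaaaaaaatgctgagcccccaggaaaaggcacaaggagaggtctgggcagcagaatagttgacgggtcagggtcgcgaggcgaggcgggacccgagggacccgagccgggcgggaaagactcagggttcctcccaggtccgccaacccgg
Nkx6-2: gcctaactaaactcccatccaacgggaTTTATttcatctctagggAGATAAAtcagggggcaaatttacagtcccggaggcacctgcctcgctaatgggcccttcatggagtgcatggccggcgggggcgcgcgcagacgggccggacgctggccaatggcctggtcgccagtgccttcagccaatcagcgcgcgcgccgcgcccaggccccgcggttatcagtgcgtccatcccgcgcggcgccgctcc
On either strand, TTTAT stood in such a window of 38.1% of 27025 genes in the table, and AGATAA in 10.3%. Of the 15 genes named below for their size in each direction, 10 of the higher and 10 of the lower had an entry in the table. The first motif was in 6 of the 10 higher and 6 of the 10 lower, and the second in 1 of the 10 higher and 3 of the 10 lower. A match is a run of letters and not a measured binding site.

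The Hox clusters separated the groups by paralogue number. Of 12 tested genes of paralogue groups 9 to 13, 10 were called higher in labelled hindstomach and 0 lower. Of 11 tested genes of groups 5 to 8, 4 were higher and 1 lower, and of 12 tested genes of groups 1 to 4, 0 were higher and 2 lower. Without labelled hindstomach replicate 2, the lower calls of groups 1 to 4 and of groups 5 to 8 were lost, and without small intestine replicate 2, 3 genes of groups 1 to 4 were called higher. DESeq2, run as an alternative, called 5 of the 12 genes of groups 9 to 13 higher, with no adjusted p for 1 of them, and 3 of the 11 of groups 5 to 8. The 4 libraries alone called 7 of the 12 and 0 of the 11 by edgeR. Summed over groups 9 to 13, the level was 435 and 464 CPM in labelled hindstomach, 0.440 and 1.66 CPM in small intestine, and 0.881 and 0.621 CPM in E12 forestomach. Summed over groups 1 to 4, it was 63.1 and 38.8 CPM in labelled hindstomach and 50.3 and 57.3 CPM in small intestine. The sums of the first kind lay far apart and those of the second overlapped.

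In the Hoxa cluster, Hoxa9 was at 52.2 and 41.9 CPM in labelled hindstomach and at 0.0676 and 0.605 CPM in small intestine, a log2 fold change of 7.09 ± 1.17 (SE) with an adjusted p of 0.00094. Hoxa10 was at 104 and 120.1 CPM, against 0.0338 and 0.0319 CPM, which is a single count in each small intestine library. The ratio of its summed counts was 3420.4, with a 95% counting interval of 947 to 28248. Hoxa11 was at 6.12 and 8.32 CPM and at 0 in both small intestine libraries, at least 71.2-fold higher by the floor of 3 counts per library. Its antisense transcript Hoxa11os was at 31.0 and 41.6 CPM, against 0 and 0.0319 CPM. The strand setting of the counting is not given in the sources used here, so Hoxa11 and Hoxa11os cannot be told apart. Hoxa13 was at 9.91 and 12.1 CPM, against 0 and 0.382 CPM, and missed the threshold with an adjusted p of 0.0546.

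Hoxd genes from group 8 to group 13 were at 4.89 CPM or more in labelled hindstomach and at 0.169 CPM or less in small intestine. Hoxd10 was at 17 and 20.3 CPM and at 0 in both small intestine libraries, at least 184-fold higher. Hoxd11 was at 31.9 and 36.3 CPM, against 0.169 and 0.0319 CPM, with a log2 fold change of 8.35 ± 1.45 (SE) and an adjusted p of 0.000955. Hoxd12 was at 4.89 and 6.07 CPM, against 0 in both, at least 54.0-fold higher. Hoxd13, whose protein shapes the hindmost gut and the digits, was at 29.6 and 32.3 CPM, against 0.0338 and 0.0319 CPM. DESeq2 did not call Hoxd10, Hoxd12, Hoxd13 or Hoxa11.

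In the Hoxb cluster, Hoxb13 had a log2 fold change of 10.79 ± 0.88 (SE), with an adjusted p of 1.46e-05 (0.00227 with the 4 libraries alone). Hoxb9 was at 14.7 and 19 CPM, against 0 and 0.0319 CPM in small intestine. Hoxb7 was at 19.6 and 24.4 CPM, against 1.93 and 1.05 CPM, a log2 fold change of 3.88 ± 0.88 (SE) with an adjusted p of 0.00617. Genes of the Hoxc cluster were below 5 CPM in every library of the comparison. Its group 8 gene, Hoxc8, was at 0.246 and 0.0299 CPM in labelled hindstomach and at 2.47 and 4.08 CPM in small intestine, and was called lower. That call was lost without labelled hindstomach replicate 2. Among the anterior genes, Hoxa3, Hoxb2, Hoxb3 and Hoxb4 were not called.

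**Figure D3:**
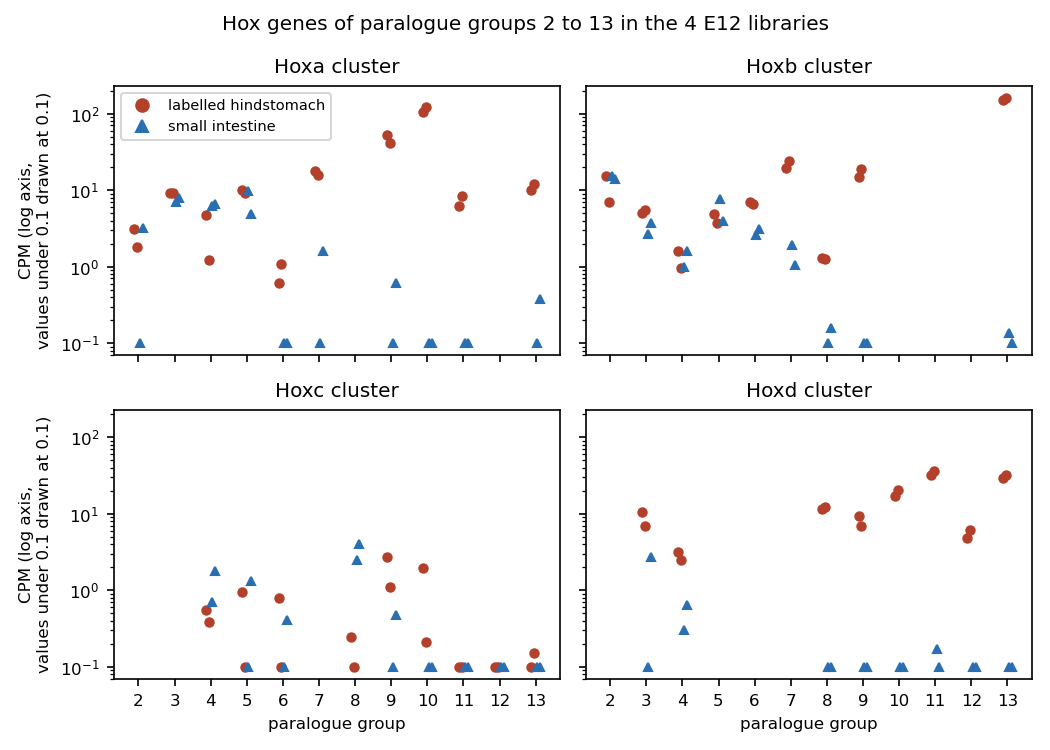
Level in CPM (log axis, values under 0.1 drawn at 0.1) of the Hox genes of paralogue groups 2 to 13, 1 panel per cluster, with red circles for the 2 libraries labelled E12 hindstomach and blue triangles for the 2 E12 small intestine libraries. Circles and triangles lie close together for most genes of groups 2 to 5 in the Hoxa and Hoxb clusters, and far apart from group 9 onward except in the Hoxc cluster.

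Of 8 further markers of the hind end of the gut tube, 7 were tested, 4 were called higher (2 by DESeq2) and 0 lower, and the median log2 fold change was 4.63. With members at 3 counts or fewer in a group set to the bound that 3 counts give, the median was 4.20. Hoxd12, Hoxd13 and the ligand gene Wnt11 were among the 4. Evx1, a homeobox gene of the tail bud, was at 11.4 and 18.1 CPM, against 0 and 1.59 CPM, and was not called (adjusted p 0.0875).

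Stomach and foregut factors went both ways. Of 18 tested foregut and stomach transcription factors, 5 were called higher and 4 lower, where 5.60% and 3.67% of all tested genes were. Pitx1, a homeodomain factor, was at 16.6 and 10.5 CPM in labelled hindstomach and at 90.4 and 124 CPM in small intestine, a log2 fold change of -2.98 ± 0.27 (SE) with an adjusted p of 3.05e-07. Foxq1, a forkhead factor of stomach surface cells, was at 4.25 and 4.04 CPM, against 20.5 and 19.4 CPM, with a log2 fold change of -2.27 ± 0.22 (SE). Sox2 and its relative Sox21 were called higher, but at low levels. Sox21 was at 4.25 and 3.41 CPM, against 0.0338 and 1.85 CPM, and at 119 and 132 CPM in E12 forestomach. The Sox2 call, at a log2 fold change of 1.56 ± 0.44 (SE), was lost without labelled hindstomach replicate 1 (0.86) and without small intestine replicate 2 (1.16). Nr2f2, an orphan nuclear receptor, was at 113 and 88.4 CPM, against 28.7 and 29.2 CPM.

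Of 27 tested gastric differentiation genes, 2 were called higher and 8 lower, where 5.60% and 3.67% of all tested genes were. The list summed to 264 and 299 CPM in labelled hindstomach and to 184 and 181 CPM in small intestine, and most of the former was Krt7. The fitted median log2 fold change of the list was 0, and -1.11 with low members at their bound and those at 3 counts or fewer in both groups left out. Cym, the milk-clotting protease chymosin of the young stomach, was at 0.246 and 0 CPM in labelled hindstomach, 4.36 and 2.23 CPM in small intestine and 143 and 142 CPM in E12 forestomach. Cldn18, the tight junction claudin of the stomach, was at 0.308 and 0.0598 CPM, against 2.30 and 0.574 CPM, and 12.5 and 15.1 CPM in E12 forestomach. Its lower call was lost without small intestine replicate 1. The 2 higher members were Psca, a surface protein, and Krt7, a simple-epithelial keratin that was at 239 and 265 CPM against 102 and 100 CPM.

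Intestinal genes divided. Of 21 tested intestinal transcription factors, 3 were called higher (1 without labelled hindstomach replicate 1 or small intestine replicate 1) and 7 lower, and Gata6 and Hnf4a were not called. Isx, an intestine-specific homeobox gene, was at 20 and 23.2 CPM in labelled hindstomach and at 146 and 136 CPM in small intestine, a log2 fold change of -2.70 ± 0.64 (SE) that was no longer called without either labelled hindstomach replicate. Onecut2, a factor of the upper intestine and liver, was at 13.3 and 17 CPM, against 106 and 119.6 CPM. Gata5, a relative of Gata4, was at 6.64 and 5.60 CPM, against 24.4 and 32.8 CPM. Each of the 3 lay lower in both libraries labelled hindstomach than in either small intestine library.

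Of 42 intestinal differentiation genes, 7 were called higher and 10 lower, where 5.60% and 3.67% of all tested genes were. The higher count was 3 without either labelled hindstomach replicate, 4 without small intestine replicate 1 and 11 without small intestine replicate 2. Fabp2, the intestinal fatty-acid-binding protein, was at 0.738 and 0.449 CPM, against 23.6 and 32.2 CPM, with a log2 fold change of -5.55 ± 0.34 (SE) and an adjusted p of 1.99e-09. Apoa1, an apolipoprotein, was at 38.5 and 60.8 CPM, against 356 and 337 CPM. Lgals2, a galectin of the gut epithelium, was at 9.26 and 6.49 CPM, against 291 and 294 CPM. Of the 7 higher members, 6 were below 6 CPM in labelled hindstomach. The exception, Spink3, a secreted trypsin inhibitor, was at 58.8 and 96.4 CPM, against 24.7 and 20.1 CPM, and its call was lost without labelled hindstomach replicate 2. Vil1, which builds the microvillus, and Fabp1 were not called and their groups overlapped. Vil1 was at 26.9 and 37.2 CPM, against 19.3 and 41.1 CPM.

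Of 17 tested genes of the pancreas bud, 11 were called lower and 0 higher, with a median log2 fold change of -4.78, or -3.88 with members at the floor set to their bound. The list summed to 19.7 and 22.6 CPM in labelled hindstomach and to 597 and 561 CPM in small intestine. Cpa1, a digestive carboxypeptidase and marker of the pancreatic tip, was at 0 in both libraries labelled hindstomach and at 231 and 224 CPM in small intestine, at least 2468-fold lower. Ptf1a, the factor that specifies pancreatic exocrine cells, was at 0 and 0.0598 CPM, against 12.1 and 28.9 CPM. Pdx1, needed for the pancreas and the first part of the intestine, was at 0.461 and 0 CPM, against 33.6 and 41.0 CPM. E12 forestomach held Cpa1 at 79.9 and 75.9 CPM and Pdx1 at 27.5 and 24.6 CPM, so labelled hindstomach was the low group of the 3. Insulin genes Ins1 and Ins2 were at or near 0 in all 4 libraries. Fewer cells of a type and less RNA per cell cannot be told apart in these bulk libraries.

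Of 29 tested genes of endocrine differentiation, 16 were called lower (10 without labelled hindstomach replicate 2) and 2 higher (4 without small intestine replicate 2), with a median log2 fold change of -4.36, or -3.48 with bounds. Neurog3, the factor that starts the endocrine program, was at 0 in both libraries labelled hindstomach and at 10.6 and 8.54 CPM in small intestine, at least 103-fold lower. Nkx2-2 was likewise at 0 in both, against 17.1 and 15.6 CPM, at least 177-fold lower. Among hormones, Gcg, the glucagon precursor, was at 0.123 and 0.419 CPM, against 89.4 and 78.1 CPM, with a log2 fold change of -8.24 ± 0.91 (SE). Pyy, peptide YY, was at 1.23 and 4.34 CPM, against 89.7 and 99.3 CPM. Both were also high in E12 forestomach, Gcg at 272 and 247 CPM and Pyy at 95.5 and 85.3 CPM. Isl1, a LIM homeodomain factor used in endocrine cells and also elsewhere, went against the list at 122 and 74.0 CPM, against 0.271 and 15.5 CPM. The other higher member, the neurotensin gene Nts, was below 1 CPM in labelled hindstomach.

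**Figure D4:**
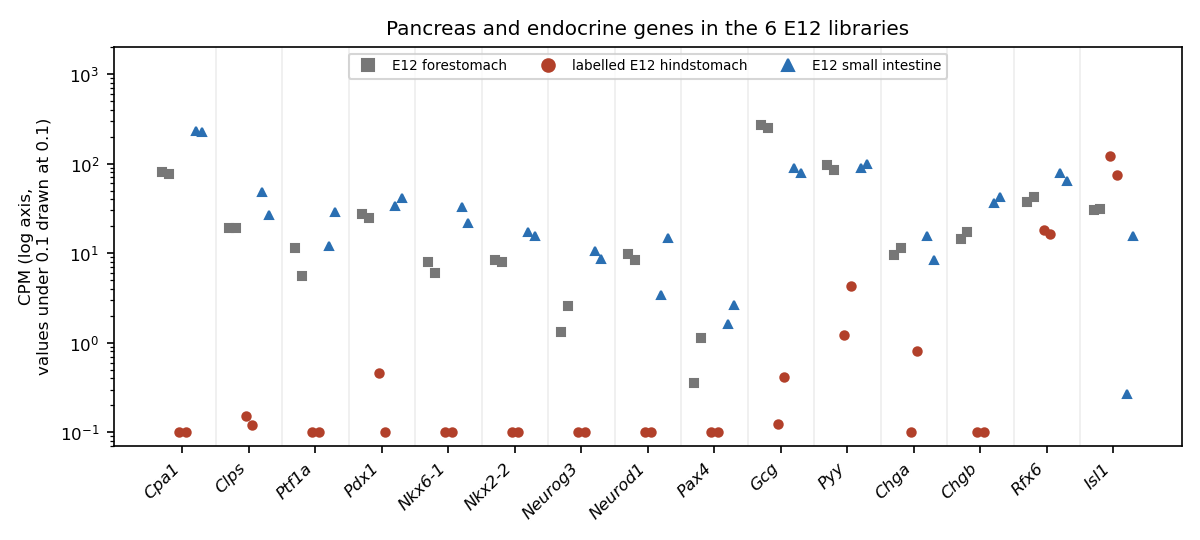
Level in CPM (log axis, values under 0.1 drawn at 0.1) of 15 pancreas and endocrine genes in E12 forestomach (grey squares), labelled E12 hindstomach (red circles) and E12 small intestine (blue triangles), with 1 point per library. The red circles lie under both other groups for every gene drawn except Isl1, at 122 and 74.0 CPM.

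Of 14 liver bud genes, 5 were called lower and 1 higher (2 without small intestine replicate 2). Among all tested genes, 5.60% were called higher and 3.67% lower. The higher liver bud gene, Afp, the fetal plasma protein that the yolk sac and gut also make, was at 282 and 494 CPM, against 127 and 114 CPM. Albumin itself was low throughout, at 0.769 and 2.18 CPM, against 0 and 0.319 CPM. Of the 6 genes listed for the biliary bud, 2 were called lower. Spp1, osteopontin, was at 3.75 and 2.54 CPM, against 103 and 106 CPM, a log2 fold change of -5.05 ± 0.46 (SE).

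Wnt ligands are secreted proteins that help to pattern the hind part of the gut. Many of them, but not all, stabilise beta-catenin in the cells that receive them. Of 59 tested members, 14 were called higher and 8 lower, where 5.60% and 3.67% of all tested genes were. Of these, 3 and 2 were also called by the 4 libraries alone, a fit that called 0.389% and 0.459% of its genes. Without labelled hindstomach replicate 1 the higher count was 9. The lower count was 4 without labelled hindstomach replicate 2 and 5 without small intestine replicate 1. Among ligands, Wnt11 was at 43.4 and 45.9 CPM in labelled hindstomach and at 7.85 and 4.97 CPM in small intestine, a log2 fold change of 2.80 ± 0.43 (SE). Wnt7b went the other way at 7.26 and 6.88 CPM, against 48.0 and 47.6 CPM, and its call was lost without either labelled hindstomach replicate. Wls, which escorts Wnt ligands out of the cell, was at 179 and 191 CPM, against 67.4 and 86.2 CPM.

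Secreted Wnt inhibitors of the Sfrp family split. Sfrp5, the largest contrast in the list, was at 0.0308 and 0.0299 CPM in labelled hindstomach, a single count in each library, and at 267 and 224 CPM in small intestine. The ratio of summed counts was 8072, small intestine over labelled hindstomach, with a 95% counting interval of 2234 to 66659. Sfrp1 was lower too, while Sfrp2 was at 62.5 and 78.7 CPM, against 9.57 and 12.2 CPM, a log2 fold change of 2.70 ± 0.22 (SE). Lef1, a nuclear factor that works with beta-catenin and is itself a Wnt target, was at 30.1 and 21.8 CPM, against 1.29 and 3.86 CPM. Axin2, a general target, was not called, at 2.12 and 0.808 CPM against 1.18 and 2.93 CPM.

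Of 43 members of the BMP and TGF-beta list, 7 were called higher (13 without small intestine replicate 2) and 3 lower (1 without labelled hindstomach replicate 2). Over all tested genes, 5.60% were called higher and 3.67% lower. The 4 libraries alone called 0 members of this list in either direction. The ligand Bmp2 was at 32.7 and 38.3 CPM, against 0.0338 and 4.01 CPM. The targets Id1 and Id3, inhibitors of helix-loop-helix factors, were lower, Id1 at 33.9 and 11.5 CPM against 93.2 and 101 CPM. Both were lowest in labelled hindstomach replicate 2, and Id3 was not called without it. Of 24 tested FGF genes, 4 were called higher and 0 lower, where 5.60% and 3.67% of all tested genes were. Dusp6, a phosphatase induced by FGF signalling, was at 129.6 and 152 CPM, against 67.1 and 62 CPM, a log2 fold change of 1.12 ± 0.19 (SE). Without small intestine replicate 1 the FGF count fell to 2, and without labelled hindstomach replicate 1 likewise to 2, while without small intestine replicate 2 it rose to 8.

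Notch receptors and their ligands act between neighbouring cells, and in the gut they set which cells become secretory. Of 24 tested members, 6 were called lower and 1 higher, where 3.67% and 5.60% of all tested genes were. The higher count was 2 without labelled hindstomach replicate 2 and 3 without small intestine replicate 2. The receptor Notch1 was at 8.09 and 6.16 CPM, against 44.2 and 30.3 CPM, with a log2 fold change of -2.38 ± 0.23 (SE). The ligand Dll1 was at 1.23 and 0.479 CPM, against 10.5 and 14.8 CPM. The target Nrarp was at 4.28 and 1.77 CPM, against 18.9 and 25.4 CPM. The best-known target, Hes1, at 104 and 122 CPM against 207 and 208 CPM, did not pass (adjusted p 0.0656).

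Of 17 tested Hedgehog genes, 2 were called higher and 1 lower, where 5.60% and 3.67% of all tested genes were. The lower call was lost without labelled hindstomach replicate 2 and with the replicate block. The higher count was 6 without small intestine replicate 2. It was 1 without either labelled hindstomach replicate, and both higher calls were lost without small intestine replicate 1. The ligand Shh was at 260.1 and 277 CPM, against 153 and 166 CPM, with a log2 fold change of 0.76 ± 0.26 (SE) and an adjusted p of 0.0547, and the ligand Ihh was not called. Among 22 tested members of the retinoic acid list, 2 calls were higher (6 without small intestine replicate 2) and 3 lower. Cyp26b1, which degrades retinoic acid, was at 0.523 and 0.838 CPM, against 15 and 13.7 CPM, and Rbp4, the carrier of retinol, at 219.8 and 251 CPM, against 819 and 837 CPM.

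Of 24 tested imprinted and fetal growth genes, 7 were called lower (4 without labelled hindstomach replicate 2) and 2 higher (1 without that replicate or small intestine replicate 1). H19, an imprinted noncoding RNA, was at 334 and 344 CPM in labelled hindstomach and at 1019 and 1067 CPM in small intestine, a log2 fold change of -1.62 ± 0.16 (SE) with an adjusted p of 8.89e-07. Dlk1, a membrane protein of immature cells, was at 60.3 and 94.1 CPM, against 573 and 577 CPM. Mest was at 63.5 and 53.4 CPM, against 276 and 287 CPM. Cdkn1c, an imprinted cell cycle inhibitor, was not called. Among 33 tested cell cycle genes, 1 was called higher and 3 lower, where 5.60% and 3.67% of all tested genes were, and Mki67 was not called, at 95 and 69.3 CPM against 99.1 and 91.8 CPM. The inhibitor Cdkn1a was at 36.9 and 30.0 CPM, against 162 and 154 CPM, and the growth factor-induced gene Myc at 23.3 and 24.9 CPM, against 79.2 and 61.7 CPM.

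Of 38 claudin, junction and adhesion genes, 2 were called higher and 3 lower, where 5.60% and 3.67% of all tested genes were, and without small intestine replicate 2 the higher count was 10 (without labelled hindstomach replicate 1 it was 1). Cldn8, a sealing claudin of the hind gut and kidney ducts, was at 154 and 227 CPM, against 39.2 and 25.3 CPM. Gjb1, a gap junction connexin, was at 5.17 and 6.58 CPM, against 107 and 80.7 CPM. Of 19 Eph and ephrin genes, 2 were called in each direction, and without small intestine replicate 2 the higher count was 4. The lower count was 1 without labelled hindstomach replicate 2 and 1 without small intestine replicate 1. Efna1 was at 64.8 and 58.0 CPM, against 6.97 and 15.5 CPM, and Efnb2 at 17.7 and 18.4 CPM, against 76.6 and 112 CPM.

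Among 168 tested members of other developmental transcription factor families, 21 were called higher and 22 lower, where 5.60% and 3.67% of all tested genes were. The higher ones included Gata3, at 27 and 27.2 CPM against 4.87 and 1.69 CPM, and Prrx1, at 15.5 and 18.6 CPM against 0 and 0.159 CPM. Gata3 is used in the nephric duct and in squamous epithelia, and Prrx1 in mesenchyme of limb and face. Foxp2, a forkhead factor, was at 38.1 and 39.7 CPM, against 6.05 and 4.68 CPM. With small intestine replicate 1 left out, the higher count of these families fell to 13, and without labelled hindstomach replicate 1 likewise to 13. Without small intestine replicate 2 it rose to 36, and without labelled hindstomach replicate 2 the lower count fell to 14.

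Of the genes called by both fits without overlap and with a mean log2 CPM of at least 2, 52 were higher and 64 lower, and the 15 with the largest fitted change in each direction were named. Of the 15 higher, 8 belong to the Hox clusters: Hoxd10, Hoxa10, Hoxb13, Hoxa11os, Hoxd13, Hoxb9, Hoxd11 and Hoxa9. Of the other 7, the matrix protein Postn, periostin, was at 1188 and 1551 CPM, against 32.4 and 21.5 CPM in small intestine and 7.82 and 5.49 CPM in E12 forestomach. Its log2 fold change was 5.67 ± 0.31 (SE), with an adjusted p of 1.95e-09 (0.00459 with the 4 libraries alone). Clca3, a secreted protein of mucus-making cells, was at 374 and 549.6 CPM, against 0.440 and 0.159 CPM. Smoc2, a matrix protein, was at 97.0 and 54.7 CPM, against 2.71 and 3.57 CPM.

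The remaining 4 higher genes were near 0 in small intestine. The peptide transporter Slc15a2 was at 16.3 CPM in both libraries labelled hindstomach and at 0 in both small intestine libraries, at least 161-fold higher. Adamts18, a secreted protease, was at 19.1 and 11.9 CPM and again at 0 in both, at least 153-fold higher. The surface protein Ly6a was at 14.6 and 21.6 CPM, against 0.0338 and 0 CPM, and the vasopressin receptor Avpr1a at 16.5 and 23.5 CPM, against 0.0676 and 0.255 CPM. Ly6a has near-identical relatives in its family, and reads could have been split among them.

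Among the 15 lower genes, Cpa1, Clps, Nkx6-1, Nkx2-2, Gcg and Chgb belong to the pancreas or to endocrine cells, and Gata4, Nkx6-2 and Sfrp5 were given above. Clps, the lipase cofactor colipase, was at 0.154 and 0.120 CPM, against 47.6 and 26.7 CPM. Also among them were P2rx1, an ATP-gated channel at 0 in both libraries labelled hindstomach and at 44.7 and 41.8 CPM in small intestine, Gc, the vitamin D carrier of plasma, Tcf24, a helix-loop-helix factor, Cckar, the cholecystokinin receptor, and Pla2g2d, a secreted phospholipase. Gc was at 0 and 0.180 CPM, against 146 and 159 CPM. In E12 forestomach Gc was at 58.7 and 42.2 CPM and P2rx1 at 15 and 16.8 CPM.

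The genes that separated hindstomach from small intestine at E14 were then read at E12. At E14, 1178 genes were called (6.83%): 601 of 17239 genes were called higher in hindstomach (3.49%) and 577 lower (3.35%). The contrasts at E12 and E14 share no libraries of their groups, but both come from the 27-library fit and so share its estimate of the spread. With the 4 E12 libraries alone, the 121 higher and 95 lower genes given next came to 9 and 17. With the 6 E12 libraries they came to 34 and 39. So in both smaller fits the lower calls of the first list outnumbered the higher ones. The 107 lower and 57 higher genes of the second list came to 19 and 7 with 4 libraries, and to 25 and 15 with 6. Over all tested genes, the shares called at E12 were 5.60% higher and 3.67% lower. Of the 601, 121 (20.1%) were called higher at E12 and 95 (15.8%) were called lower. Of the 577, 107 (18.5%) were called lower at E12 and 57 (9.88%) higher. The median fitted log2 fold change at E12 was 0.16 for the first list and -0.31 for the second. At E16, 4422 genes were called (25.7%), 3025 higher (17.5%) and 1397 lower (8.10%). Of the 3025, 326 (10.8%) were called higher at E12 and 203 (6.71%) lower. Of the 1397, 128 (9.16%) were called lower at E12 and 85 (6.08%) higher, the latter close to the share over all genes.

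**Figure D5:**
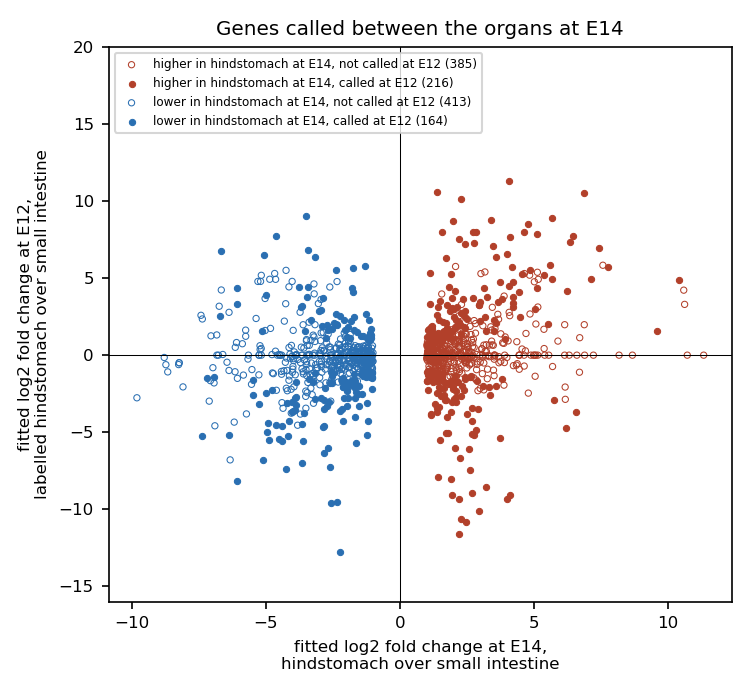
Fitted log2 fold change, hindstomach over small intestine, at E14 (x axis) and at E12 (y axis) of the 601 genes called higher (red) and the 577 called lower (blue) in hindstomach at E14. Filled points are the 216 and 164 genes called in either direction at E12. Filled points of both colours lie above and below the zero line of the E12 axis.

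The test of the difference itself gave 1356 genes (7.87%) whose difference between labelled hindstomach and small intestine at E12 differed from that at E14. It was above for 720 (4.18%) and below for 636 (3.69%). Both the count and the split depended on single libraries. More calls lay below than above without E12 small intestine replicate 1 or without either E14 hindstomach replicate. The median over all tested genes was 0.073, and 0.21 without E12 small intestine replicate 2. Against E16 there were 3504 genes (20.3%), above for 1353 (7.85%) and below for 2151 (12.5%). This balance rested on E12 small intestine replicate 2, and without it more calls lay above than below. The median of the E12 minus E16 difference over all tested genes was -0.077, and 0.096 without that library. Gata4 was among the genes called: hindstomach and small intestine both held 251 to 358 CPM at E14. Its E12 difference was lower than its E14 difference by 8.88 ± 0.38 (SE) on the log2 scale, with an adjusted p of 4.80e-11. For Cdx2, at 122.8 and 152 CPM in E14 small intestine, the E12 difference was higher than the E14 difference by 3.90 ± 0.42 (SE). For Cldn18, at 300.3 and 262 CPM in E14 hindstomach, the E12 difference was lower by 8.69 ± 0.63 (SE). For Shh the E12 difference was higher by 2.80 ± 0.37 (SE), since at E14 hindstomach had 42.8 and 51.7 CPM and small intestine 176 and 213 CPM. The corresponding test for Hoxb13 gives nothing, because both organs were at or near 0 counts at E14 and E16.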

How the data were processed

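The values are whole-number counts per gene that the authors deposited for 27 embryonic libraries in 13 groups, 20 wild-type libraries and 7 of small intestine without Cdx2. The submitters' processing notes name STAR 2.5.3a and HTSeq, and the build mm9, with no role or order. The annotation and the strand setting are not given in the sources used here. Of the columns of the count table, 2 matched no sample used here and were left out, as were the adult libraries. The 27 libraries were fitted together with edgeR 4.0.16 in R 4.3.3 (TMM, filterByExpr with a minimum count of 10, quasi-likelihood test, Benjamini-Hochberg adjustment over 17239 genes). The SE was taken from the size of the change and the F statistic. A group at a count of 0 is bounded by the floor of 3 counts per library, and intervals and floors cover counting error only, since PCR copies cannot be told from separate molecules here. DESeq2 1.42.0, other scalings, filters, sample sets and left-out libraries were alternatives. Members and lists were chosen with earlier results of these data known. Genes named by size are the 15 per direction with the largest fitted change among those called by the shared fit and by the 4 libraries alone, not overlapping, with a mean log2 CPM of at least 2, without Gm, Rik and LOC symbols. Genes of the germ cell and nephric lists were chosen after their values were seen. Some items are not reported here. On simulated counts for this comparison, drawn for each fit at its own estimated dispersion (0.0708 and 0.326), the 27-library fit recovered 5 of 50 genes changed 2-fold and 47 of 50 changed 4-fold among 17130 tested, and the 4-library fit 0 of 50 at 4-fold and 30 of 50 at 16-fold among 13953.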

Additional observations from a re-analysis of the deposited data

Results flagged for a closer look

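The difference between the libraries labelled hindstomach and small intestine at E12 differed from that at E14 for 1356 genes and from that at E16 for 3504 genes, by interaction terms in the 27-library edgeR fit. The named genes with an interaction of adjusted p below 0.05 were read as the E12 difference minus the later one, on the log2 scale, over 2 libraries per group. Gata4 gave -8.88 against E14 and -8.64 against E16. Sox2 gave -8.03 and -4.53. Cdx2 gave 3.90 and 4.09. Cldn18 gave -8.69 and -10.65. Shh gave 2.80 against E14. Fitted values of genes near 0 counts in a group, such as Sox2 in small intestine at E14 and E16, depend on the prior count.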

How the results depend on the processing

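The 1599 calls at E12 came to 122 with the 4 libraries alone, 293 with the 6 E12 libraries and 2549 with no fold minimum, and higher genes were 60.4% of calls in the shared fit, 45.9% with 4 and 49.5% with 6 libraries. Leaving out 1 library gave 1153 to 3930 calls at E12, the highest without small intestine replicate 2, where 72.3% were higher. The same range was 866 to 3568 for the E12 minus E14 difference and 2773 to 4893 for E12 minus E16. Leaving out E14 hindstomach replicate 1 or 2 gave 872 or 882, and E14 small intestine replicate 1 gave 866. Of genes called higher at E14, 121 were called higher at E12, 9 with 4 libraries, 34 with 6, and 104 to 171 without 1 library. Of genes called lower at E14, 107 were lower at E12, 19 with 4 libraries, 25 with 6, and 73 to 120 without 1 library. In the smaller fits, genes called higher at E14 were called lower at E12 more often than higher, 17 against 9 with 4 libraries and 39 against 34 with 6. Why the counts of the smaller fits are lower was not tested. With the replicate block the counts were 1393, 1105 and 3056. The replicate deviations of the E12 groups correlated at -0.0376 to 0.0117, so no pairing by replicate number was seen across genes. With 2 libraries a group, this cannot tell whether replicates of the same number shared a litter. Of 91 named called genes, 53 of 90 tested kept the call with 4 libraries, 70 with 6, 89 with the 20 wild-type libraries, 89 with the replicate block (not Mov10l1 or Sox10), 85 of the 89 with an adjusted p under DESeq2, and 91 under RLE scaling, thinning and no filter. Without 1 library 82 to 88 did, and the log2 fold change of Sox10 ran from -7.66 to 0, the latter without small intestine replicate 2, so its direction was lost. Genes below about 1 CPM rest on few counts.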
